A study of Mus musculus with 13 samples.

Results

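STAT5A regions called after interleukin 3 (IL3) stimulation were not spread evenly: 1735 of the 15543 regions on assembled chromosomes, or 11.2%, lay in 360 clusters, and the other 13808 did not. A cluster was a chain of 4 or more regions of the pooled list with IL3 in which each gap to the next region was at most 12.5 kb, and clusters were ranked by their summed region score. These positions and scores chose the members, so numbers of regions, gaps and scores are a description without a test. The tests below use chromatin immunoprecipitation with sequencing (ChIP-seq) libraries that the choice did not use.

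The cells were Ba/F3, an established mouse pro-B cell line that needs IL3 to grow and survive, kept in 1 ng/mL IL3. Cells of the group with IL3 went 6 h without the cytokine before 30 min at 10 ng/mL, and cells of the group without IL3 were harvested after the 6 h of deprivation alone. STAT5A, LSD1 and HDAC3 were each immunoprecipitated in both groups in 2 biological replicates. This gave 12 libraries, and each of the 6 groups also has a region list from its pooled replicates. The replicate lists held between 234 and 15783 regions on assembled chromosomes, and replicates of 1 group differed in length. STAT5A without IL3 had 352 and 4504 regions in replicates 1 and 2, LSD1 without IL3 1005 and 15783, HDAC3 with IL3 683 and 234, and HDAC3 without IL3 1632 and 533. Read totals were not given. All cells came from 1 cell line, and every position is on mm10.

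The IL3 receptor signals through JAK kinases, which phosphorylate STAT5 proteins. Phosphorylated STAT5 dimers enter the nucleus and bind the palindrome TTCNNNGAA, and neighbouring dimers can bind side by side as tetramers. Among the best-known STAT5 target genes are Cish, Socs1 and Socs3, whose products inhibit cytokine signalling, the kinase gene Pim1 and the cytokine gene Osm. LSD1 removes methyl groups from histone H3 within the CoREST complex, and HDAC3 removes acetyl groups from histones within NCoR and SMRT corepressor complexes.

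Sequences are given for promoters where a clustered region and a TTCNNNGAA motif coincided. They were picked for the motif, so they do not show a typical clustered STAT5A site. Clustered regions away from promoters were not searched for the motif. In 15 genes a clustered region covered at least 1 motif in the RefSeq promoter window (GRCm38.p6, 250 bases before to 50 bases after the annotated start). The 4 with the highest region scores are given from the start of the shared stretch to at most 30 bases past the start, 5′ to 3′ on the gene's strand, with the motif in capitals; they were chosen after their values were seen. Cish encodes a cytokine-inducible inhibitor of STAT signalling, Lta encodes lymphotoxin alpha, Csf2rb2 encodes the IL3-specific beta chain of the mouse IL3 receptor, and Arhgap28 encodes a GTPase-activating protein. They lie at chr9:107296520-107296688 on the plus strand, and at chr17:35205322-35205477, chr15:78305692-78305814 and chr17:68004255-68004358 on the minus strand.
Cish: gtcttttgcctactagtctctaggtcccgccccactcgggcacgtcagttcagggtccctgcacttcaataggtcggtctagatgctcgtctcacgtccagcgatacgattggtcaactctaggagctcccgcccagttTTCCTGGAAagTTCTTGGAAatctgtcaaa
Lta: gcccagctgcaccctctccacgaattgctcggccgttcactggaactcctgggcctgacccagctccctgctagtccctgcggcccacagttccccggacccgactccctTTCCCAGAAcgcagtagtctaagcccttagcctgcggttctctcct
Csf2rb2: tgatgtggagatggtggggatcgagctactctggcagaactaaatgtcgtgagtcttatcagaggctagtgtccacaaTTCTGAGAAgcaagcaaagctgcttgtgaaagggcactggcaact
Arhgap28: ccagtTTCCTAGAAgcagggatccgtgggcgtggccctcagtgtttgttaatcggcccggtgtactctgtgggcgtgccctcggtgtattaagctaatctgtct
The Cish stretch held 2 motifs, TTCCTGGAA and TTCTTGGAA, whose first bases lay 11 bases apart, the first of them at the annotated start. Those of Lta, Csf2rb2 and Arhgap28 began 16, 15 and 245 bases before the annotated start. The STAT5A region at Cish had the highest score of all clustered regions, 587.5, and those at Lta, Csf2rb2 and Arhgap28 scored 149.5, 143.1 and 106.8. All 4 regions overlapped a STAT5A region in both replicate lists with IL3, as did 22.4% of clustered and 12.8% of unclustered regions. The 4 were picked by score, and most of the lower-scoring stretches with a motif did not overlap replicate 2. None of the 4 overlapped a pooled LSD1 or HDAC3 region with IL3, which overlapped 33.4% and 4.56% of all regions. At least 1 motif stood in 20 of 112 promoter windows overlapped by a clustered region (17.9%, 95% Wilson interval 11.9 to 26.0) and in 305 of 2135 overlapped by an unclustered region (14.3%, 12.9 to 15.8), against 7.69% of all 21263 windows of protein-coding genes. The intervals of the clustered and unclustered windows overlap. The motif reads the same on both strands, and a match is a description, not a binding site.

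Clusters were short relative to the distance between most STAT5A regions. The median span was 18945 bp (2171 to 55857), the median gap inside a cluster was 5049 bp, and the median gap between all neighbouring regions of the list was 31766 bp. Of the 360 clusters, 197 had 4 regions, 91 had 5, 37 had 6 and 18 had 8 or more, and the largest had 11. Outside the clusters were 7939 isolated regions, 2009 chains of 2 and 617 chains of 3. The largest gap inside a cluster was 12473 bp and the smallest gap that separated 2 chains was 12511 bp.

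The cut at 4 regions did not separate strong from weak loci. Clusters of 4 had a median summed score of 173.0 (64.2 to 907.9) and chains of 3 had 106.9 (45.0 to 1008.4), and 161 of the 617 chains of 3 exceeded the median of clusters of 4. The 3 strongest chains of 3 lay near Vav1, a guanine nucleotide exchange factor gene (1008.4), near Lrp12, a lipoprotein receptor family gene (903.7), and near Add3, an adducin gene (713.6). Single clustered regions had a median score of 32.0, against 23.5 for unclustered and 21.4 for isolated regions. The highest score of the list, 681.5, belonged to an unclustered region, and 3 of the 10 and 31 of the 100 highest-scoring regions were clustered.

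The highest-scoring region carried a median of 41.6% of the summed score (17.5 to 81.3%), and in 145 clusters it was the first or last of the chain. Both STAT5A replicates with IL3 contributed to the pooled list, but unequally. Replicate 1 (13572 regions) overlapped 82.6% of clustered and 70.6% of unclustered regions, against 72.0% of all, and replicate 2 (6280 regions) overlapped 30.5% and 28.2%, against 28.5% of all. Clusters rebuilt from each replicate list alone numbered 330 in replicate 1 and 38 in replicate 2.

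**Figure D1:**
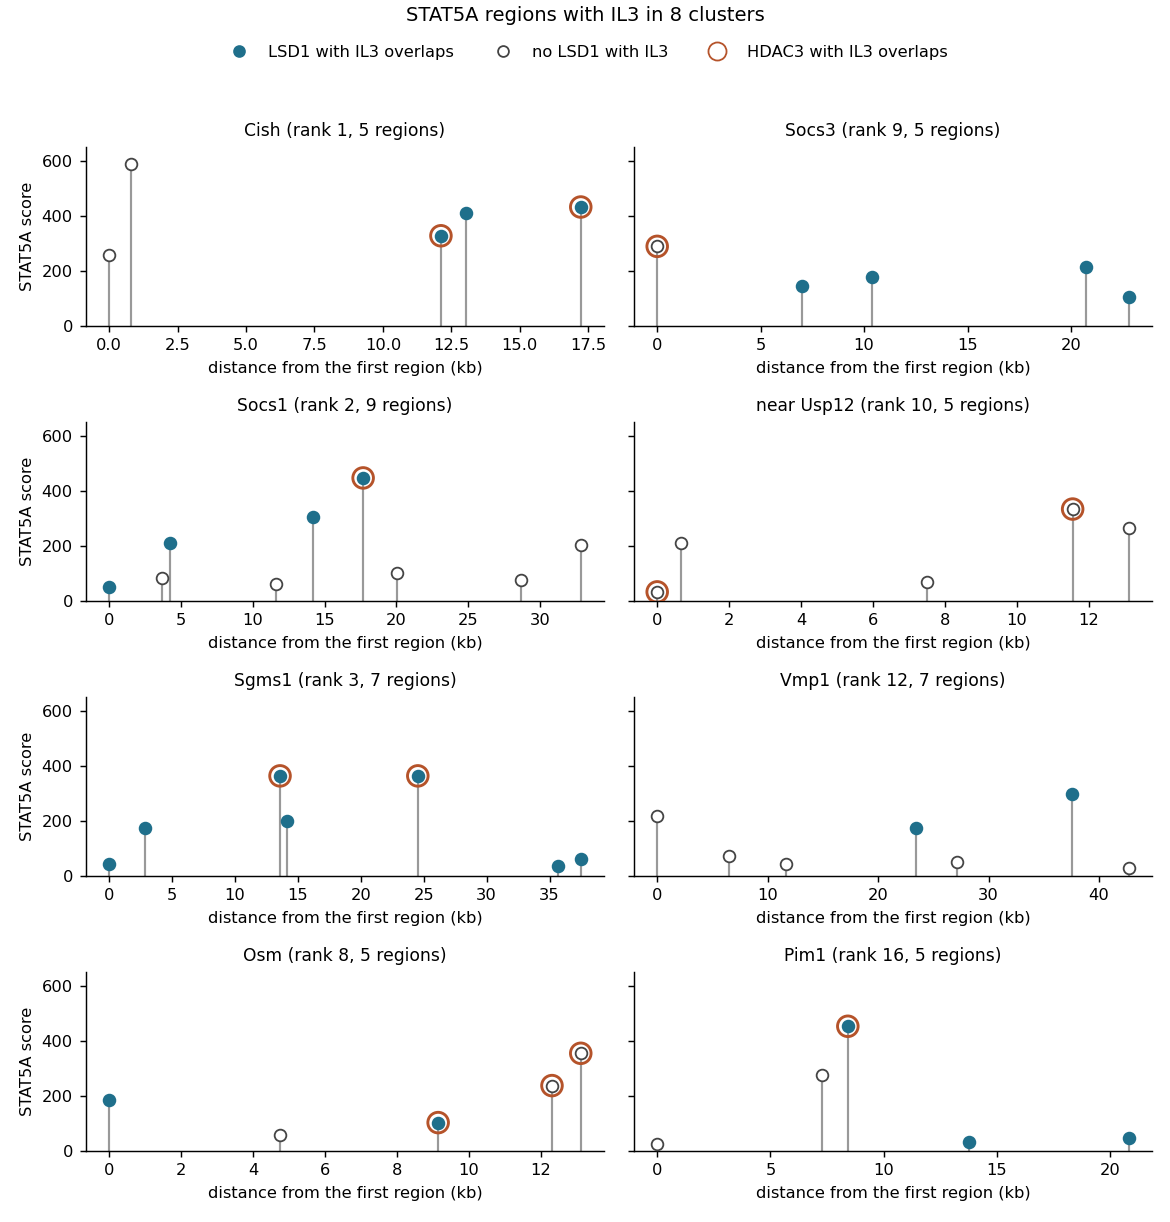
STAT5A regions with IL3 in 8 selected clusters, placed by distance in kb from the first region, with the score of the pooled list on the vertical axis. The selection is not the 8 clusters of highest rank, as that near Usp12 ranked 10. Filled points overlap a pooled LSD1 region with IL3 and open points do not, and rings mark overlap with a pooled HDAC3 region with IL3. The region at Cish with a score of 587.5 is the tallest and is open, while all 7 regions in Sgms1 are filled and all 5 near Usp12 are open.

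Negative feedback genes of cytokine signalling held the clusters at ranks 1, 2 and 9. The cluster at Cish ranked 1, with 5 regions, a span of 17402 bp and a summed score of 2012.4. Its regions scored 258.5, 587.5, 326.9, 408.0 and 431.5 in genomic order, and all 5 overlapped regions of both STAT5A replicate lists with IL3. The first pair stood 866 and 52 bp from the Cish start, and the other 3 lay 5129 to 10236 bp beyond the nearer end of the gene.

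Cish showed 2 kinds of member. The region at the start scored 842.8 in STAT5A replicate 1 (rank 3 of 13572) and 300.1 in replicate 2 (rank 13 of 6280) with IL3, and 43.8 (rank 89 of 352) in replicate 1 without IL3, with no call in replicate 2 without IL3. Neither region near the start overlapped a pooled LSD1 or HDAC3 list. Each of the 3 distal regions overlapped LSD1 with IL3, and the outer 2 of them also overlapped HDAC3 with IL3 in replicate 1, at ranks 33 and 9 of its 683 regions.

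Socs1, which encodes a JAK inhibitor, ranked 2 with 9 regions over 33000 bp and a summed score of 1531.9. All 9 regions overlapped STAT5A replicate 1 with IL3 and 5 overlapped replicate 2. The highest, at chr16:10772345-10772519, scored 446.5 in the pooled list, 600.4 in replicate 1 and 255.1 in replicate 2, and lay 13104 bp from the Socs1 start, beyond 10 kb of the gene, while the region nearest an end of Socs1, at 396 bp, scored 74.8. LSD1 with IL3 overlapped 4 of the 9 and HDAC3 with IL3 overlapped 1, the highest. No region of this cluster overlapped STAT5A without IL3.

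Socs3, another feedback inhibitor gene, shared its cluster of 5 regions (rank 9, 927.1) with Pgs1, a phosphatidylglycerophosphate synthase gene. Its highest region, at chr11:117969152-117969326, lay 127 bp from the Socs3 start, scored 288.4 and was the only 1 of the 5 without pooled LSD1 with IL3. It overlapped the pooled HDAC3 list with IL3 and the pooled LSD1 list without IL3. In STAT5A replicate 2 with IL3 that region ranked 9 of 6280, at 310.1, and in replicate 1 it ranked 554 of 13572, at 272.2. The other 4 scored between 104.7 and 213.6, all with LSD1 with IL3.

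Osm encodes oncostatin M, a cytokine of the IL6 family, and its cluster of 5 regions ranked 8 with a summed score of 937.8. The highest region, at chr11:4236649-4236823, scored 354.6 at 49 bp from an end of Osm, and its neighbour at 849 bp scored 237.1. Both overlapped the pooled HDAC3 list with IL3 and not the pooled LSD1 list with IL3. The highest region did overlap LSD1 with IL3 in replicate 2, at rank 2367 of 11567. The pooled LSD1 list with IL3 overlapped 2 other members, which scored 185.9 and 102.5.

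Pim1, a serine/threonine kinase gene that promotes survival, had a cluster of 5 regions (rank 16, 833.1). Its highest region, at chr17:29500837-29501011, scored 452.9 and lay 7839 bp from the Pim1 start. It had the highest score of the whole STAT5A replicate 2 list with IL3, 570.2, and ranked 185 of 13572 in replicate 1, at 413.9. This region was called in all 6 pooled lists, that is for all 3 proteins with and without IL3. A neighbour with a score of 275.6 overlapped STAT5A replicate 1 with IL3 and no pooled list of LSD1 or HDAC3.

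The other clusters of the first 20 mostly lay in or near genes with no place in the lists of STAT5 targets. Sgms1, a sphingomyelin synthase gene, held 7 regions (rank 3, 1243.4), all overlapped by LSD1 with IL3 and 5 by LSD1 without IL3. Iqgap2, a scaffold protein gene, with F2rl2, a thrombin receptor gene, ranked 4 with 8 regions and 1038.2. Dnah8, a dynein heavy chain gene, ranked 5 with 8 regions and 987.0. Fes, a tyrosine kinase gene, with Furin, a proprotein convertase gene, ranked 6 with 8 regions and 961.5.

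No gene lay in the span of 6 of the first 20, which were named by the nearest gene end: Inpp5a (rank 7), Usp12 (10), Gsdmc (11), Ikzf2 (14), Srp9 (17) and Fndc3a (19). The cluster near Usp12, a deubiquitinase gene, had 5 regions and a summed score of 908.0 and was the only 1 of the first 20 without LSD1 with IL3. Rara, the retinoic acid receptor alpha gene, ranked 15, and Ksr1, a scaffold of the MAP kinase pathway, ranked 18. Vmp1, an autophagy gene, and St3gal4, a sialyltransferase gene, ranked 12 and 13, and Tax1bp1, an autophagy receptor gene, ranked 20. Across the first 20, which held 18.6% of the summed score of all clusters, LSD1 was present in 19 with and all 20 without IL3, HDAC3 in 15 with and 12 without IL3, and STAT5A without IL3 in 9. Over all 360 clusters, LSD1 was present in 302 with and 311 without IL3. HDAC3 was present in 127 of the 360 with and 181 without IL3, and STAT5A without IL3 in 144.

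The cluster with the most regions, 11, lay 205129 bp from the nearest gene end, that of Rplp1, a ribosomal protein gene, and ranked 109 with a summed score of 341.9 and no single score above 59.8. Of its 11 regions, 6 overlapped LSD1 with IL3, 4 overlapped HDAC3 with IL3 and 2 were called in all 6 pooled lists. Besides Socs1, clusters of 9 lay at Fli1, an ETS factor gene (rank 34, 621.6), at Ptgs1, a cyclooxygenase gene (rank 88, 386.7), and at Irf2bp2, a transcriptional corepressor gene (rank 133, 290.4). In Fli1 the region 6281 bp from an end of the gene scored 335.4 and overlapped no pooled list of LSD1 or HDAC3, and the other 8 scored at most 83.3.

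The IL3 receptor locus itself carried a cluster. Csf2rb2 and Csf2rb, which encode the IL3-specific and the common beta chain, shared 7 regions (rank 71, 429.3). The highest member, scoring 153.8, lay 139 bp from an end of Csf2rb, and the next, at 143.1, lay 6 bp from the Csf2rb2 start, where its sequence is given above. None of the 7 overlapped LSD1 or HDAC3 with IL3, and 2 overlapped LSD1 without IL3. A further cluster of 4 regions at the neighbouring gene Ncf4 (rank 144, 267.0) also came within 10 kb of Csf2rb2. Of its 4 regions, 2 overlapped LSD1 with IL3 and 1 overlapped HDAC3 with IL3. The region nearest Csf2rb2, at 3960 bp from its end, overlapped LSD1 with and without IL3. Csf2rb2 and Csf2rb are near-identical copies, so the assignment of reads between them is uncertain.

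Other lists of genes were counted by the same rule, with a clustered region inside the gene or within 10 kb of an end. The lists were chosen with earlier results of these data known, so their counts are no independent evidence. Of 27 STAT5 target genes, 8 were at a cluster (29.6%), against 2.29% of all 21887 protein-coding genes: Cish, Socs1, Socs3, Pim1, Osm, Mcl1, Dusp6 and Egr1. Of the same 27, 25 had at least 1 STAT5A region of any kind (92.6%, against 41.4% of all genes), so most targets without a cluster, among them Myc with 2 regions and Bcl2l1 with 4, still had regions.

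At a cluster were 3 of 26 receptor and JAK-STAT genes (Csf2rb, Csf2rb2 and Il4ra), 3 of 27 immediate early genes (Junb, Egr1 and Egr3), and 5 of 27 haematopoietic factors (Runx2, Fli1, Lyl1, Zfpm1 and Hhex). The lists of survival genes (18), cell cycle and MYC genes (21), mast and myeloid genes (18) and SMAD pathway genes (17) had 1 gene each at a cluster, namely Mcl1, Cdk6, Ms4a2 and Skil. Of 20 genes of LSD1 and HDAC3 complexes, Hdac3 and Gse1 were at a cluster, and of 13 MAP kinase phosphatase genes, Dusp6 and Dusp7. None of 18 B lineage genes and none of 24 genes of other tissues was at a cluster. With 2.29% of all protein-coding genes at a cluster, lists of this length are too short to show an absence. Of these genes 8 (44.4%) and 7 (29.2%) had a STAT5A region, against 41.4% of all genes.

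Mcl1, an anti-apoptotic BCL2 family gene, had 5 regions (rank 59, 472.1), and the 3 beyond the gene, at 166.6, 40.6 and 230.7, exceeded the 2 inside it, at 17.1 each. The region at 230.7 lay 1809 bp from an end of Adamtsl4 and over 10 kb from Mcl1, so the rule for genes at a cluster counted the other 4 for Mcl1. Cdk6, a G1 cyclin-dependent kinase gene, held 7 regions (rank 24, 704.9), of which the first, at 395.2, made up 56.1% of the sum. Egr1, an immediate early factor gene, had 4 regions (rank 66, 446.4), with 335.4 in the member farthest from the gene, 15826 bp from its end and thus beyond the 10 kb of that rule, by which Egr1 had 3 regions of at most 53.4. At all 3 loci the highest member lay over 1 kb from a gene end.

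Other clusters lay at further listed genes. Junb, an AP-1 factor gene, shared 5 regions with Rnaseh2a, Prdx2 and Hook2 (rank 85, 390.9), and the highest, at 209.4, lay 327 bp from an end of Junb. Zfpm1, a GATA cofactor gene, held 4 regions (rank 210, 183.8), of which 3 overlapped LSD1 and 3 overlapped HDAC3 both with and without IL3, and 2 were called in all 6 pooled lists. Gse1, which encodes a protein of LSD1 complexes, held 5 regions (rank 120, 311.9), also with 2 called in all 6 lists. Lyl1, a basic helix-loop-helix factor gene, differed in that all 4 of its regions (rank 285, 126.0) lay within 1 kb of a gene end. Runx2, Hhex and Skil ranked 199, 257 and 323, and no region of these 3 clusters overlapped HDAC3 with IL3. Dusp7 and Dusp6, phosphatase genes of the MAP kinase pathway, ranked 82 and 208, each with 3 of 4 regions overlapped by LSD1 with IL3.

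At 13 clusters, 18 microRNA hairpin genes lay inside the span or within 10 kb of it, with 33 mature microRNAs and 33 distinct seeds. The share over all microRNA genes was not counted, so no link between clusters and microRNA genes is shown. The sequences of the main arms at 3 loci are given 5′ to 3′ from RefSeq, with the seed (bases 2 to 8) in capitals, to identify the products encoded there; the 3 were chosen after their positions were seen. They are encoded at chr11:86584120-86584141 on the minus strand, chr19:46342790-46342811 on the plus strand and chr11:87756903-87756925 on the plus strand.
miR-21a-5p: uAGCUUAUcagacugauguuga
miR-146b-5p: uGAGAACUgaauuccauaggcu
miR-142a-3p: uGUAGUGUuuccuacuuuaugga
The hairpin of miR-21a, a microRNA whose primary transcript can begin inside Vmp1, lay 2713 bp from the Vmp1 cluster (rank 12, 7 regions, 884.4). That of miR-146b, an inhibitor of Toll-like receptor signalling, lay inside the cluster of 5 regions at Fbxl15 and Cuedc2 (rank 44, 561.8), where all 5 overlapped LSD1 with IL3. Mir142, which is expressed in blood cells, lay 5011 bp from a cluster of 5 regions at Rnf43 and Supt4a (rank 288, 124.0). No member of the Vmp1 cluster overlapped HDAC3, and 2 of 7 overlapped LSD1 with IL3.

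Clustered regions were overlapped by LSD1 and HDAC3 more often than unclustered regions in each of the 8 libraries of these proteins. Over all 10 libraries that the choice of members did not use, the share overlapped was higher in clustered regions in 9, by a mean of 2.95 percentage points ± 2.87 (SD, n = 10; two-sided exact sign-flip permutation p = 0.0176). Clustered and unclustered regions are compared inside 1 library, so its depth is the same for both, and all 10 comparisons use the same STAT5A regions. When clusters were rebuilt from STAT5A replicate 2 alone the mean fell to 1.71 (exact permutation p = 0.270), and this rests on 170 clustered regions. Leaving out any 1 of the 10 libraries gave 2.51 to 3.46, and leaving out both HDAC3 with IL3 replicate 2 and LSD1 without IL3 replicate 1 gave 3.55 (exact permutation p = 0.0313).

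LSD1, the demethylase, overlapped up to 32.6% of the members in a library. With IL3 it overlapped 21.4% of clustered and 15.5% of unclustered regions in replicate 1 (16.2% of all) and 29.9% and 25.7% in replicate 2 (26.2% of all). Without IL3 it overlapped 3.63% and 2.66% in the sparse replicate 1 (2.77% of all) and 32.6% and 26.9% in replicate 2 (27.5% of all). The mean difference over the 4 libraries was 4.17 percentage points ± 2.26 (SD, n = 4; exact permutation p = 0.125, the smallest that 4 libraries allow). In the pooled lists the shares were 37.0% and 32.9% with IL3 (33.4% of all) and 34.6% and 28.3% without IL3 (29.0% of all).

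HDAC3 overlapped fewer members than LSD1 in the pooled lists, but its share differed more in relative terms. By library, HDAC3 exceeded the 3.63% of the sparse LSD1 replicate 1 without IL3 in its replicate 1 of both conditions. With IL3 it overlapped 7.26% of clustered and 2.56% of unclustered regions in replicate 1 (3.09% of all) and 0.288% and 0.203% in replicate 2 (0.212% of all), where 5 clustered regions were overlapped. Without IL3 it overlapped 11.7% and 4.84% in replicate 1 (5.60% of all) and 2.54% and 1.22% in replicate 2 (1.37% of all). The log2 ratio of the clustered over the unclustered share was 1.08 ± 0.43 for HDAC3 and 0.35 ± 0.12 for LSD1 (SD, n = 4 libraries each; two-sided exact permutation p = 0.0286, the smallest that 4 against 4 allow). The lowest HDAC3 value was 0.51 and the highest LSD1 value 0.46. STAT5A without IL3 gave 1.21 in replicate 1 (352 regions) and -0.29 in replicate 2 (4504 regions). HDAC3 lists held 234 to 1632 regions and LSD1 lists 1005 to 15783, and the part of list length was not tested. In the pooled lists HDAC3 overlapped 9.86% and 3.90% with IL3 (4.56% of all) and 15.3% and 7.87% without IL3 (8.70% of all).

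STAT5A without IL3 did not separate clustered from unclustered regions in 1 direction. Replicate 1 overlapped 2.65% of clustered and 1.14% of unclustered regions (1.31% of all), and replicate 2 overlapped 7.49% and 9.17% (8.98% of all). The pooled list overlapped 10.2% and 11.0% (10.9% of all).

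**Figure D2:**
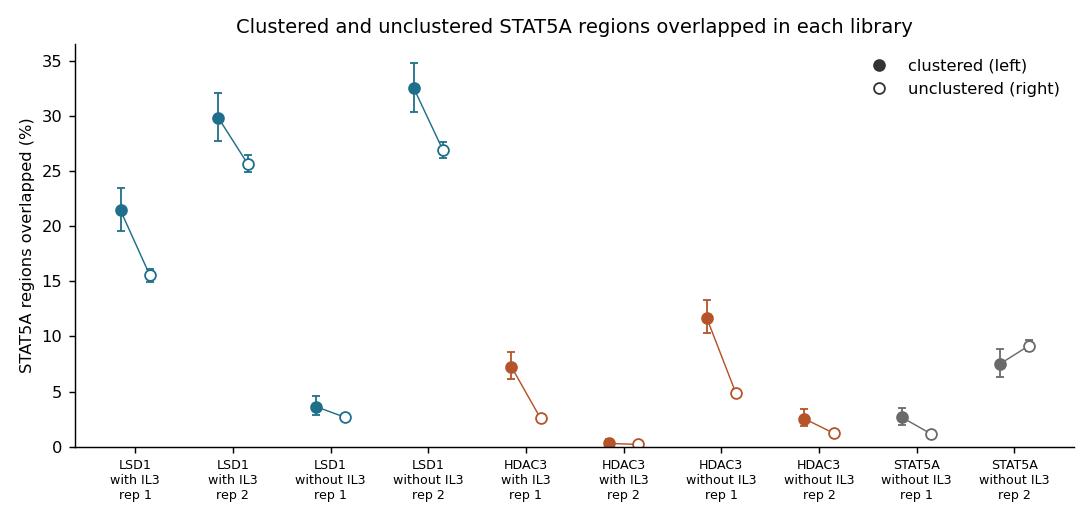
Percent of clustered (filled, left) and unclustered (open, right) STAT5A regions overlapped in each of the 10 libraries not used to choose the members, with 95% Wilson intervals that cover counting error only. The filled point is the higher in every library but STAT5A without IL3 replicate 2, where it is 7.49% against 9.17%.

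With all chains of 5 or more in 1 group, the pooled shares of LSD1 and HDAC3 were higher at each step of chain length. From isolated regions through chains of 2, 3 and 4 to chains of 5 or more, HDAC3 with IL3 overlapped 2.86, 4.65, 6.70, 8.76 and 10.8% in the pooled list, and HDAC3 without IL3 6.59, 8.86, 11.2, 14.5 and 16.1%. LSD1 with IL3 went through 31.8, 33.8, 35.7, 36.5 and 37.4%, a smaller relative change. STAT5A without IL3 stayed between 9.94 and 11.7% with no order. Chains of 5 or more held 947 regions in 163 chains, and single lengths among them kept no order: HDAC3 with IL3 overlapped 14.0% in chains of 6 and 3.36% in chains of 7, and LSD1 with IL3 43.2% and 33.6%. Some replicate lists broke the order. In HDAC3 with IL3 replicate 2 the share was 0.381% in chains of 4 and 0.211% in chains of 5 or more. LSD1 without IL3 fell from 3.67% in chains of 3 to 3.55% in chains of 4 in replicate 1. In replicate 2 it fell from 32.9% in chains of 4 to 32.3% in chains of 5 or more. HDAC3 without IL3 replicate 2 fell from 1.69% in chains of 2 to 1.46% in chains of 3. The other LSD1 and HDAC3 lists kept the order. Median STAT5A scores also rose, from 21.4 in isolated regions to 29.9 in chains of 4, and were not held equal here.

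**Figure D3:**
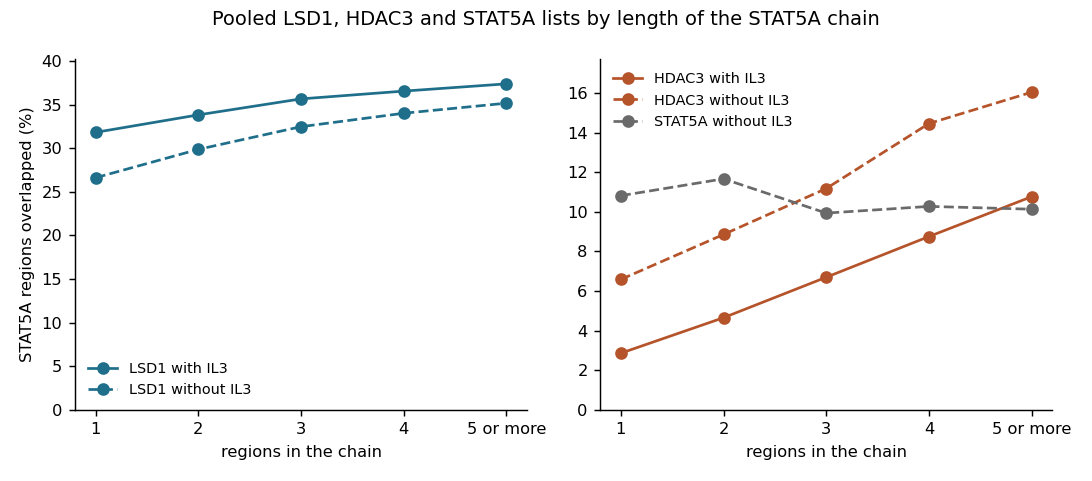
Percent of STAT5A regions with IL3 overlapped by the pooled lists of LSD1 (left), HDAC3 and STAT5A (right), by number of regions in the chain; solid lines are with IL3 and dashed lines without. HDAC3 with IL3 is higher at each further point, up to 10.8% in the group of 5 or more, and STAT5A without IL3 stays between 9.94 and 11.7%.

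Members with several proteins were also more frequent among clustered regions. LSD1 and HDAC3 with IL3 overlapped the same region in 8.59% of clustered and 3.35% of unclustered regions (3.93% of all). Regions called in all 6 pooled lists were 46 clustered (2.65%, Wilson interval 1.99 to 3.52) and 127 unclustered (0.920%, 0.774 to 1.09; 1.11% of all). HDAC3 overlapped in both pooled lists in 5.24% and 1.98% (2.34% of all), and LSD1 in all 4 replicate lists in 2.88% and 1.69% (1.83% of all). Neither protein was called in any pooled list at 52.2% of clustered and 58.5% of unclustered regions (57.8% of all), and 22 of the 360 clusters had no region with either protein in any pooled list, while 124 had both proteins with IL3. Regions of 1 cluster share a locus and are not independent, so these intervals are narrower than the true error.

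Clustered regions had higher STAT5A scores than unclustered ones, so overlap was also compared at like scores. With the list split into 4 groups of about equal size by score, in the highest-scoring group (44.9 and above), HDAC3 with IL3 overlapped 17.8% of clustered and 8.45% of unclustered regions, and LSD1 with IL3 46.9% and 39.9%. In the lowest group (17.1 and below) HDAC3 with IL3 overlapped 1.62% and 0.950%, and LSD1 with IL3 22.3% and 26.3%. Not every list followed the score: in the 4 groups from low to high, LSD1 without IL3 overlapped 23.1, 34.8, 36.1 and 38.0% of clustered and 23.1, 32.6, 31.3 and 28.2% of unclustered regions, and STAT5A without IL3 6.48, 9.69, 11.2 and 11.2% of clustered and 9.20, 14.7, 12.8 and 7.5% of unclustered regions. LSD1 with IL3 overlapped 35.3% of clustered and 35.4% of unclustered regions in the second group, and 32.9% and 32.5% in the next. Below a score of 44.9 its pooled share was thus lower or nearly equal in clustered regions. The highest group ran up to 681.5, so scores inside it varied widely. Of clustered regions 36.6% were in the highest group, against 22.2% of unclustered ones. Taken within the 4 score groups, the mean difference over the 10 libraries was 2.22 percentage points (exact permutation p = 0.0117).

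The clusters with the highest summed scores had the largest shares of HDAC3 with IL3. Of the regions in the upper, middle and lower 120 clusters by summed score, the pooled HDAC3 list with IL3 overlapped 15.7, 8.42 and 4.09%, and the pooled LSD1 list with IL3 43.5, 37.2 and 28.6%. HDAC3 without IL3 overlapped 15.8, 18.4 and 11.3%, highest in the middle 120. These groups were cut from the scores that ranked the clusters, and no test was made between them.

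At the extremes, every region of 6 clusters overlapped LSD1 with IL3, and no region of 58 clusters did. Among the full ones the highest were Sgms1 (rank 3), near Auh (31), the Fbxl15 cluster (44), Lipc (101) and near Hk2 (118). Among the empty ones they were near Usp12 (10), Trerf1 (33), near Lama5 (50), Mtmr7 (62) and Csf2rb2 (71). The 5 regions in Mtmr7, a myotubularin-related phosphatase gene, overlapped no LSD1 and no HDAC3 region with or without IL3.

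As a group, the highest-scoring regions of the clusters were overlapped more often than the other members. The 2 groups were compared as wholes and not inside each cluster, and the scores that ranked the clusters defined them. Over the 10 libraries the share was higher in the 360 highest-scoring regions than in the 1375 other members in 9, by 2.88 percentage points ± 3.24 (SD, n = 10; two-sided exact sign-flip permutation p = 0.00586). LSD1 with IL3 overlapped 28.3% of highest and 19.6% of other members in replicate 1, and 35.6% and 28.4% in replicate 2. Without IL3 the LSD1 values were 4.44% and 3.42% in replicate 1 and 33.3% and 32.4% in replicate 2.

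The LSD1 difference between highest and other members was 7.94 percentage points ± 1.06 with IL3 and 0.998 ± 0.040 without IL3 (SD, n = 2 each). The libraries of the 2 conditions did not overlap in this value, but 2 against 2 cannot go below an exact permutation p of 0.333, which is the value found. The sparse LSD1 replicate 1 without IL3 overlapped only 4.44% of highest and 3.42% of other members. Its difference could thus not reach 7.94 percentage points, while the long replicate 2 without IL3 (15783 regions) overlapped 33.3% and 32.4%. Neither the part of list length nor relative differences were tested. HDAC3 with IL3 overlapped 12.2% of highest and 5.96% of other members in replicate 1 and 0.833% and 0.145% in replicate 2, and HDAC3 without IL3 13.1% and 11.3%, and 3.33% and 2.33%. In the pooled lists only HDAC3 without IL3 went the other way, at 15.0% of highest and 15.4% of other members. Without the regions called in all 6 pooled lists the mean over the 10 libraries was 1.55 (exact permutation p = 0.197).

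**Figure D4:**
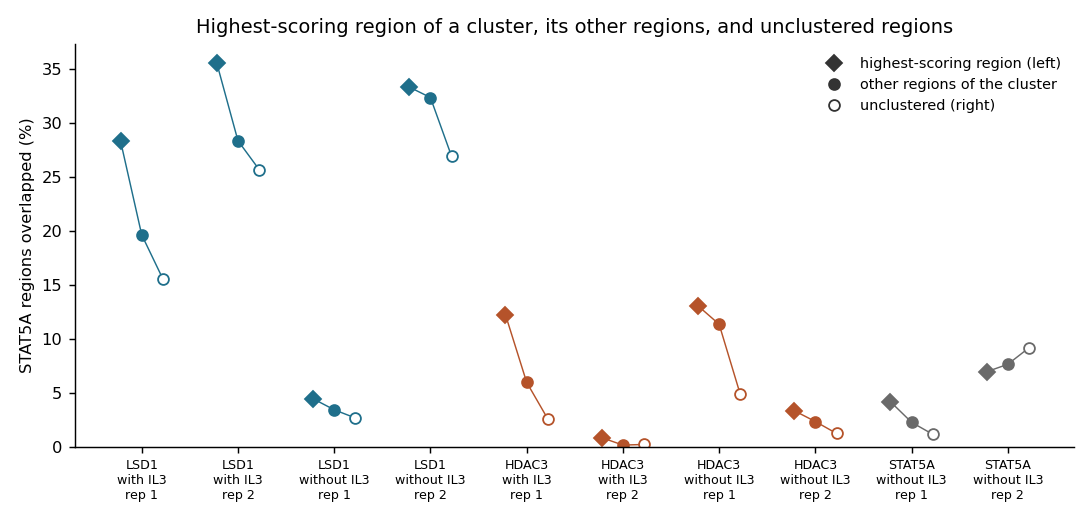
Percent overlapped in each library for the 360 highest-scoring regions of the clusters (diamonds, left), the 1375 other members (filled circles) and the 13808 unclustered regions (open circles, right). LSD1 with IL3 shows the steepest step from the highest to the other members, 28.3 against 19.6% in replicate 1.

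Clustered regions lay away from gene ends more often. Of clustered regions 14.4% (12.8 to 16.1) had their centre within 1 kb of an end of a protein-coding gene, against 26.3% (25.6 to 27.1) of unclustered ones and 25% of all, a difference of -11.9 percentage points. With clusters built without STAT5A with IL3 replicate 2 the difference was -5.58. Within 1 kb of a RefSeq transcription start the shares were 12.6% and 23.7% (22.5% of all), and 54.4% and 44.3% lay in no gene (45.4% of all). In 207 of the 360 clusters no region was at a gene end, and 115 clusters had no gene in the span. The upper 120 clusters by summed score had 9.22% of their regions at a gene end and the lower 120 had 23.9%.

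Away from gene ends the clustered share was higher in 10 of 10 libraries, by 4.02 percentage points ± 3.45 (SD, n = 10; exact sign-flip permutation p = 0.00195, the smallest that 10 libraries allow). At gene ends it was higher in 7 of 10, by 0.206 ± 3.70 (exact permutation p = 0.867), and the direct comparison of both positions within a library gave a difference of 3.82, positive in 6 of 10 (exact permutation p = 0.0625). For LSD1 the means were 6.29 away from gene ends and -1.84 at gene ends, positive in 3 of 4 libraries (exact permutation p = 0.250, smallest 0.125). LSD1 with IL3 replicate 2 overlapped 29.7% of clustered and 21.7% of unclustered regions away from gene ends, and 30.8% and 36.9% at gene ends. HDAC3 with IL3 replicate 1 overlapped 7.41% and 3.16% away from gene ends, and 6.40% and 0.908% at gene ends, so its difference did not turn.

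**Figure D5:**
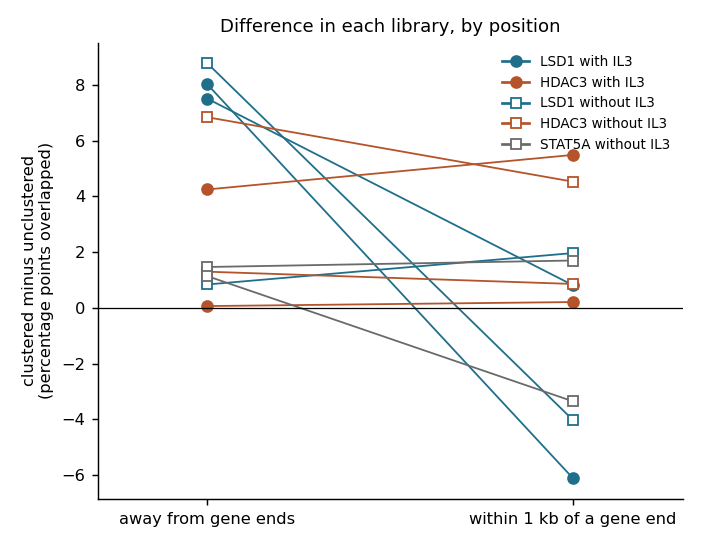
Clustered minus unclustered share, in percentage points, for each library, away from gene ends (left) and within 1 kb of a gene end (right); lines join the values of 1 library. All 10 values are above 0 on the left, and 3 are below 0 on the right, the lowest at -6.12 for LSD1 with IL3 replicate 2.

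LSD1 regions at clustered STAT5A regions also scored higher in their own lists than those at unclustered ones. The median LSD1 scores were 24.8 and 22.3 with IL3 in replicate 1, 34.6 and 29.3 with IL3 in replicate 2, 90.7 and 75.6 without IL3 in replicate 1, and 42.7 and 33.5 without IL3 in replicate 2. The log2 ratio averaged 0.25 ± 0.08 and was positive in 4 of 4 libraries (SD, n = 4; exact permutation p = 0.125, the smallest possible). It was 0.12 with gene ends left out (exact permutation p = 0.5), 0.14 among the higher-scoring STAT5A regions and 0.15 with clusters built without STAT5A with IL3 replicate 2 (exact permutation p = 0.250 for both). For HDAC3 the ratio averaged 0.03 ± 0.11 and was positive in 1 of 4 (exact permutation p = 1.0).

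No change of the overlap at clustered regions with IL3 was detectable beyond the spread between replicates. LSD1 overlapped 25.6% ± 5.95 of clustered regions with IL3 and 18.1% ± 20.5 without IL3 (SD, n = 2 each; two-sided exact permutation p = 1.0). HDAC3 overlapped 3.78% ± 4.93 with IL3 and 7.12% ± 6.48 without IL3 (SD, n = 2 each; exact permutation p = 0.667). The difference between clustered and unclustered regions differed by 1.72 percentage points for LSD1 and by -1.70 for HDAC3, with IL3 minus without IL3 (exact permutation p = 0.667 for both, n = 2 each). With 2 replicates a side the smallest p is 0.333, so 2 against 2 could not pass 0.05, and the p-values do not show that the conditions were alike.

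For STAT5A itself, 325 clustered regions (18.7%) overlapped both replicate lists with IL3 and neither without IL3, against 1515 unclustered regions (11.0%; 11.8% of all). This uses the libraries that made the pooled list and is given as a description. LSD1 followed the same pattern, in both with IL3 and in neither without IL3, at 53 clustered regions (3.05%) and 324 unclustered regions (2.35%; 2.43% of all).

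Clusters built by the same rule in other lists overlapped only partly with these. The pooled LSD1 list with IL3 had 441 clusters and that without IL3 504, and 117 and 136 of the 360 STAT5A clusters touched one. HDAC3 had 3 clusters with IL3 and 34 without IL3. STAT5A without IL3 had 12 clusters, and 4 of the 360 STAT5A clusters with IL3 touched at least 1 of these. Seen from the other side, the spans of the 360 clusters covered 7.40 Mb and held 22.3% and 4.70% of the HDAC3 regions with IL3 in replicates 1 and 2, and 15.8% and 9.94% of those without IL3. For LSD1 the shares were 7.91% and 6.24% with IL3 and 8.86% and 5.43% without IL3. The HDAC3 with IL3 replicate 2 list, the shortest, thus had the lowest share of the 4 HDAC3 lists.

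The share of regions in a cluster also differed between chromosomes, with 17.4% on chromosome 16, 15.3% on chromosome 15, 5.53% on chromosome 18 and 5.32% on X. All 20 chromosomes with more than 1 region held at least 3 clusters.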

How the data were processed

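ChIP-seq of 3 proteins was measured in Ba/F3 cells with and without IL3, with 2 replicates each. The authors deposited 18 BED lists, 12 from single libraries and 6 from pooled replicates, in which every region has a score whose definition was not given. Trimmomatic 0.30, Bowtie2 2.1.0, Picard 1.92, HOMER 4.8 and mm10 are named per the submitters' processing notes. The settings of the region caller were not given in the sources used here. The input library was not used here. Region width is fixed in each list, between 123 and 235 bp.

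Regions on assembled chromosomes (15543 of 15546) were chained with Python 3.11.15, numpy 2.4.6, scipy 1.17.1 and pandas 2.3.3, and figures were drawn with matplotlib 3.10.9. An overlap is 1 bp or more. Scores were compared only inside 1 list. Within-library differences were tested by a two-sided exact sign-flip permutation over libraries and conditions by a two-sided exact permutation, at a threshold of 0.05. Intervals are 95% Wilson intervals and cover counting error only. Gene bounds, promoters and microRNAs are from RefSeq GRCm38.p6, the mm10 assembly. Of 239 listed genes all 239 were found.

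Members and gene lists were chosen with earlier results of these data known. Clusters named are the 20 of highest summed score, the 5 of most regions, those at listed genes, the 3 strongest chains of 3, and the 5 strongest with LSD1 with IL3 at every region and at none; the text gives part of them. The comparisons of highest with other members, of positions and of HDAC3 with LSD1 ratios were added after seeing the data. Chains, overlaps and tests were tested on simulated data. Alternatives were the gap, chain length, score, gene ends, overlap rule and libraries left out.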

Additional observations from a re-analysis of the deposited data

How the results depend on the processing

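The number of clustered regions followed the rule: 249 with gaps of at most 5 kb, 4495 with 25 kb, 3586 with chains of 3 or more, 947 with 5 or more, 773 among the higher-scoring 50% of the list, and 170 and 1564 when clusters were built without STAT5A with IL3 replicate 1 and without replicate 2. The clustered minus unclustered share at gene ends was -11.9 percentage points and became -14.0, -9.34, -9.04 and -9.87 with 5 kb, 25 kb, chains of 3 and the higher-scoring regions, and -13.8 and -5.58 without replicate 1 and without replicate 2. The mean difference over 10 libraries kept its direction and its side of 0.05 in 24 of 25 alternatives, and it was 1.71 (exact permutation p = 0.270) without STAT5A with IL3 replicate 1; without replicate 2 it was 4.24, and leaving out 1 of the 10 libraries at a time gave 2.51 to 3.46. LSD1 without IL3 ranged from -0.107 to 5.65 with 1 list left out. The highest against other members gave 1.55 without regions in all 6 pooled lists. The STAT5A difference without IL3 (-0.0844) turned to 0.0514 with 25 kb, 1.07 without STAT5A with IL3 replicate 2, 1.30 without gene ends, 0.0414 within score groups, 1.15 with both (added after seeing the data) and 1.51 without its replicate 2, and with 1 list left out it ranged from -2.22 to 1.51. The HDAC3 score ratio (0.0284) turned to -0.0565, -0.0845 and -0.0443 with 25 kb, chains of 3 and the higher-scoring regions, to -0.0360 against isolated regions, -0.0455 without gene ends and -0.0258 without HDAC3 without IL3 replicate 1, and reached 0.560 without STAT5A with IL3 replicate 2. The IL3 change of LSD1 turned to -6.92 and its clustered minus unclustered difference to -0.623 without LSD1 without IL3 replicate 1, and they reached 22.02 without LSD1 without IL3 replicate 2 and 4.63 without STAT5A with IL3 replicate 1. For HDAC3 the same values turned to 2.35 and 4.56 without STAT5A with IL3 replicate 1, to 0.144 and 0.611 without HDAC3 with IL3 replicate 2, and to 1.24 and 1.08 without HDAC3 without IL3 replicate 1; their lowest values, without HDAC3 without IL3 replicate 2, were -7.93 and -4.47. Listed genes at a cluster numbered 24, and 38 within 50 kb and 14 with regions inside the gene only. The cause of these changes was not tested.

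With the replicate number as a block the IL3 changes kept their values, 7.55 for LSD1 (exact sign-flip permutation p = 1.0) and -3.34 for HDAC3 (exact permutation p = 0.5, n = 2 pairs, smallest 0.5), and the 2 pairs do not show whether the numbers pair the samples. Read depth was not given, and a region not called in the short lists, such as those of 234 and 352 regions, is not shown to be unbound.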
